A study of Cavia porcellus with 12 samples.

Results

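Nuclear receptors and coactivators that govern fatty acid, glucose and drug metabolism in liver were followed in guinea pigs with NASH (non-alcoholic steatohepatitis, fatty liver with inflammation) and in controls. The members were taken from a list of 10 human gene symbols, and the 9 of them that have a row among the rlog (regularised log2) values that the authors deposited were analysed, out of 11896 symbols in all. They are the peroxisome proliferator-activated receptors *PPARA*, *PPARD* and *PPARG*, the PGC-1 coactivators *PPARGC1A* and *PPARGC1B*, the pregnane X receptor PXR (*NR1I2*), the constitutive androstane receptor CAR (*NR1I3*) and the retinoid X receptors *RXRA* and *RXRB*. The listed *RXRG* was not analysed here. The rule names symbols and sets no threshold on a measured value, but it was written with earlier results of these data known and points to the low *PPARA* of control animal 5, which is therefore given as a description.

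Liver RNA from 12 female Dunkin Hartley guinea pigs was sequenced, 6 with NASH (high-fat diet for 25 weeks, animals 2, 9, 11, 20, 41 and 65) and 6 healthy controls (chow for 25 weeks, animals 5, 10, 31, 32, 45 and 56). The animals were 10 weeks old on arrival, and the high-fat diet also carried added sucrose and cholesterol. The animals with NASH had been picked for bridging fibrosis and the controls at random, so that diet and disease cannot be told apart. The livers were not perfused, and each library was made from a piece of 1 lobe of 1 animal.

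PPARs, PXR and CAR bind DNA as heterodimers with an RXR partner, so that the same RXR proteins serve lipid-sensing and drug-sensing receptors alike. PPAR-alpha drives fatty acid oxidation and ketogenesis in hepatocytes, PPAR-gamma drives lipid uptake and storage and is best known from fat cells and macrophages, and PPAR-delta is expressed broadly. PXR and CAR induce cytochromes P450, conjugating enzymes and transporters in hepatocytes. The PGC-1 proteins bind to PPARs and other nuclear receptors and raise the transcription of genes for oxidative metabolism, and in liver for gluconeogenesis.

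A control library held 16980274 to 28636467 read counts and a NASH library 23704607 to 33091460. Levels are given as CPM, counts relative to the library size after scaling by edgeR's TMM factors, which were 0.804 to 0.875 in controls and 1.12 to 1.24 in NASH. Of the 9 hepatocyte markers measured, 8 were lower and none higher in NASH, and their summed level was 110067 to 140818 CPM in controls and 44943 to 72738 CPM in NASH. Markers of stellate cells and myofibroblasts (766 to 937 CPM in controls, 1671 to 3337 CPM in NASH, 9 of 11 higher and 1 lower), of cholangiocytes (337 to 416 against 610.2 to 1058 CPM, 6 of 8 higher) and of macrophages (403 to 711 against 1023 to 1347 CPM, 3 of 9 higher and 1 lower) did not overlap between groups in their sums, nor did erythroid markers (57.0 to 171 against 426 to 4524 CPM, 4 of 4 symbols higher) and mitosis genes (11.6 to 18.1 against 39.2 to 169 CPM, 8 of 8 higher). The erythroid symbols stand on 3 rows, since *HBA1* and *HBA2* share a row. Without *GPNMB* the macrophage sums overlapped, at 389 to 653 CPM in controls and 589 to 786 CPM in NASH. The part of these cell types in the changes below was not tested, and in bulk tissue fewer cells of a type and less RNA per cell cannot be told apart.

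By edgeR's quasi-likelihood test, at a threshold of 0.05 on p-values adjusted over all genes by Benjamini-Hochberg, 5 of the 9 members were differentially expressed, where 53.9% of all tested genes were. Lower in NASH were *NR1I3*, *RXRA* and *NR1I2*, 3 of 9, against 26.0% of all tested genes. Higher were *PPARD* and *PPARG*, 2 of 9, against 27.9% of all tested genes. *PPARA*, *RXRB* and both PGC-1 genes did not pass the threshold. On the log2 scale the members had a median of −0.03 and all tested genes one of 0.00184, and the members ran in both directions, from −2.11 to 0.58. All 6 animals with NASH lay below all 6 controls for *NR1I3* and *NR1I2*, a separation that 15.3% of all tested genes showed in that direction, and for no member did they all lie above, where 18.4% of genes did. Every member has a count row of its own, shared with no other symbol.

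**Figure D1:**
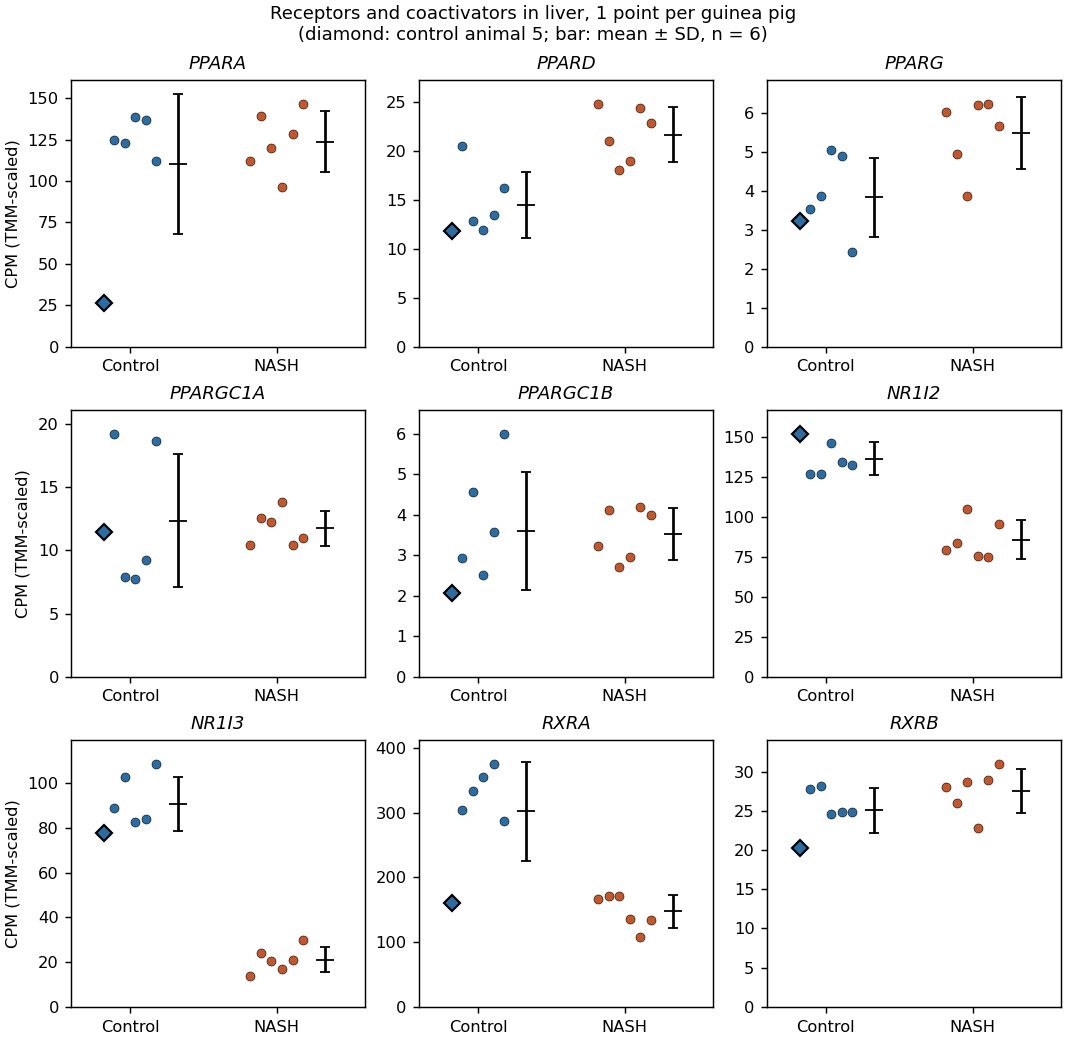
TMM-scaled CPM (vertical axes, starting at 0) of the 9 members in each of 6 controls and 6 guinea pigs with NASH. Points are animals, the diamond is control animal 5, and the bar gives the mean with its SD. *NR1I3* and *NR1I2* separate the groups, *RXRA* does so apart from animal 5, and *PPARA* in animal 5 lies at 26.2 CPM, far under the other 11 animals.

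*NR1I3* encodes CAR, the receptor through which phenobarbital induces hepatic drug metabolism, and it showed the largest change of the members. In controls it measured 77.8, 89.0, 103, 82.8, 83.8 and 108 CPM in animals 5, 10, 31, 32, 45 and 56. In NASH it measured 14.0, 23.9, 20.7, 16.8, 21.1 and 30.0 CPM in animals 2, 9, 11, 20, 41 and 65. The highest animal with NASH was thus well under the lowest control. The mean fell from 90.8 ± 12.1 to 21.1 ± 5.61 CPM (SD, n = 6 each), 4.30-fold lower, a log2 difference of −2.11 ± 0.17 (± SE, edgeR adjusted p = 6.96e-07). Relative spread was larger in NASH, with a coefficient of variation of 26.6% against 13.4% in controls, animal 2 lying lowest and animal 65 highest.

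*NR1I2* encodes PXR, which senses bile acids, steroids and many drugs. Controls held 151, 127, 127, 146, 134 and 132 CPM in animals 5, 10, 31, 32, 45 and 56. Guinea pigs with NASH held 79.2, 83.5, 105, 75.3, 74.8 and 95.7 CPM in animals 2, 9, 11, 20, 41 and 65. The groups did not overlap, and animals 11 and 65 came closest to the controls. The mean fell from 136.1 ± 10.2 to 85.6 ± 12.2 CPM (SD, n = 6 each), 1.59-fold lower, a log2 difference of −0.67 ± 0.09 (± SE, edgeR adjusted p = 6.43e-05). In controls *NR1I2* was the least variable member, with a coefficient of variation of 7.52%.

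*RXRA* encodes the main RXR of hepatocytes and the partner of PPARs, PXR and CAR. The controls other than animal 5 lay between 287 and 375 CPM, and animal 5 at 161 CPM, which was 48.7% of the mean of the other controls. Guinea pigs with NASH measured 166, 171, 171, 135, 108 and 135 CPM in animals 2, 9, 11, 20, 41 and 65. Animal 5 therefore lay within the range of the animals with NASH, and every other control lay above that range. The mean fell from 302 ± 76.3 to 148 ± 25.8 CPM (SD, n = 6 each), 2.05-fold lower, a log2 difference of −1.03 ± 0.19 (± SE, edgeR adjusted p = 0.000465). Without animal 5 the log2 fold change was −1.16 (edgeR adjusted p = 1.56e-05).

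*RXRB*, which encodes another RXR, measured 20.2 to 28.1 CPM in controls and 22.8 to 30.9 CPM in NASH. Animals 11, 41 and 65 with NASH lay above every control, control animal 5 lay below every animal with NASH, and the other 8 animals shared one range. Its means were 25.1 ± 2.85 and 27.6 ± 2.83 CPM (SD, n = 6 each), a log2 difference of 0.14 ± 0.09 (± SE, edgeR adjusted p = 0.245) and a 95% interval from −0.07 to 0.34, which leaves out a fall of the size seen for *RXRA*. When libraries were scaled by size only, which moved the median of all genes to 0.48 on the log2 scale, *RXRB* passed the threshold at 0.61 (edgeR adjusted p = 0.000136).

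The 3 PPAR genes differed in their values. *PPARD* measured 11.8, 20.5, 12.8, 11.9, 13.5 and 16.2 CPM in control animals 5, 10, 31, 32, 45 and 56, and 24.8, 21, 18, 19.0, 24.4 and 22.9 CPM in animals 2, 9, 11, 20, 41 and 65 with NASH. Only control animal 10 reached into the range of the animals with NASH. The mean rose from 14.5 ± 3.36 to 21.7 ± 2.81 CPM (SD, n = 6 each), 1.5-fold, a log2 difference of 0.58 ± 0.14 (± SE, edgeR adjusted p = 0.00364). Without animal 10 it was 0.71 (edgeR adjusted p = 0.000313).

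*PPARG* was measured at a low depth, with 36 to 119 counts in controls and 118 to 244 in NASH. In CPM the controls held 3.22, 3.54, 3.86, 5.05, 4.90 and 2.42 in animals 5, 10, 31, 32, 45 and 56, and the animals with NASH 6.02, 4.93, 3.87, 6.20, 6.22 and 5.67 in animals 2, 9, 11, 20, 41 and 65. Animals 9 and 11 with NASH overlapped with the higher controls. The mean was 3.83 ± 1.01 CPM in controls and 5.49 ± 0.928 CPM in NASH (SD, n = 6 each), a log2 difference of 0.51 ± 0.18 (± SE, edgeR adjusted p = 0.0311). This call did not hold when control animal 5, 10 or 56 or NASH animal 2, 20 or 41 was left out, with adjusted p-values between 0.0543 and 0.0643 from edgeR and log2 fold changes between 0.41 and 0.48. Beside it, the summed macrophage markers were higher in every animal with NASH than in any control with *GPNMB* and overlapped without it. *CD68* and the scarce *TREM2* also separated the groups, whereas *MARCO* was 2.42-fold lower (edgeR adjusted p = 0.00364). *CSF1R*, *CD14*, *C1QA*, *C1QB* and *C1QC* did not pass the threshold. Of 8 adipocyte markers, *ADIPOQ*, *LEP*, *PLIN1* and *AQP7* are not rows of the table, *FABP4* was higher, *CIDEA*, *CIDEC* and *LIPE* were lower, and the sum of these 4 was 31.2 to 60 CPM in controls and 25.8 to 46.2 CPM in NASH.

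*PPARA* did not pass the threshold. Its controls measured 26.2, 125, 123, 139, 137 and 112 CPM in animals 5, 10, 31, 32, 45 and 56, and its animals with NASH 112, 139, 120, 96.5, 128 and 146 CPM in animals 2, 9, 11, 20, 41 and 65. Apart from animal 5 the groups shared one range. The means were 110.3 ± 42.4 and 124 ± 18.3 CPM (SD, n = 6 each), a log2 difference of 0.16 ± 0.30 (± SE, edgeR adjusted p = 0.665) with a 95% interval from −0.48 to 0.81. Without animal 5 the controls averaged 127 ± 10.9 CPM (SD, n = 5), and the log2 fold change was −0.04 (edgeR adjusted p = 0.779), so that its sign rests on that animal.

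**Figure D2:**
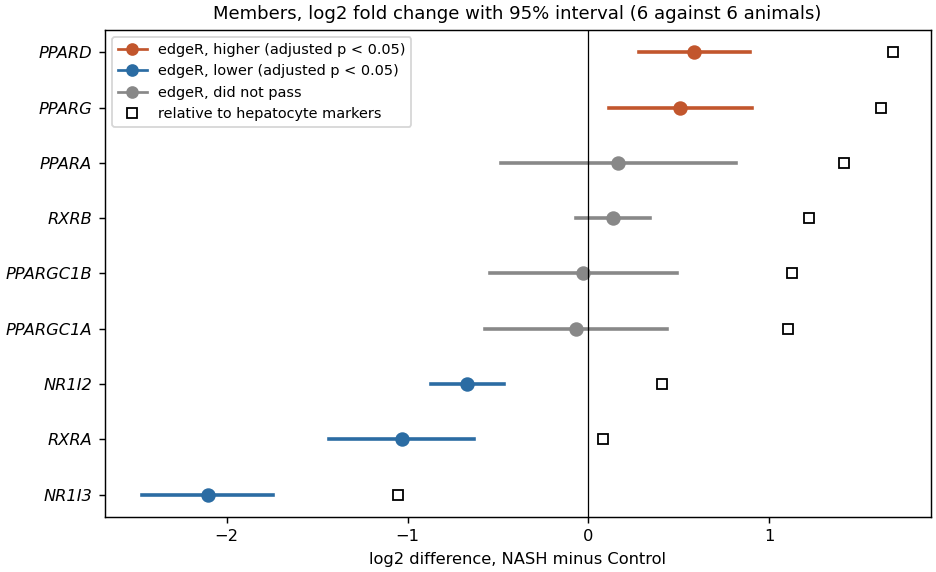
Log2 difference between NASH and Control (horizontal axis) of the 9 members, with 6 animals in each group. Circles with 95% intervals are edgeR log2 fold changes, from −2.11 for *NR1I3* to 0.58 for *PPARD*, and open squares are differences relative to the mean of 9 hepatocyte markers in the same animal, which are negative for *NR1I3*, near 0 for *RXRA* (0.08, and −0.11 without control animal 5) and positive for the other 7.

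The PGC-1 coactivators varied among controls more than between groups. *PPARGC1A*, which is induced in liver by fasting, measured 11.4, 19.2, 7.92, 7.76, 9.22 and 18.6 CPM in control animals 5, 10, 31, 32, 45 and 56, and 10.4 to 13.8 CPM in NASH. Control animals 10 and 56 stood above every animal with NASH, and animals 31, 32 and 45 below every one. The coefficient of variation was 42.5% in controls and 11.8% in NASH, and the log2 difference −0.07 ± 0.23 (± SE, edgeR adjusted p = 0.82, 95% interval −0.57 to 0.43). The same animals 10 and 56 also had the highest *PPARD* of the controls. *PPARGC1B* measured 2.07 to 5.99 CPM in controls, from 29 counts in animal 5 upwards, and 2.72 to 4.18 CPM in NASH, a log2 difference of −0.03 ± 0.24 (± SE, edgeR adjusted p = 0.93, 95% interval −0.54 to 0.49). With either of animals 10 and 56 left out, the log2 fold change of *PPARGC1A* was 0.10 or 0.08, and over all animals left out in turn that of *PPARGC1B* ran from −0.14 to 0.17, none of them past the threshold.

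**Figure D3:**
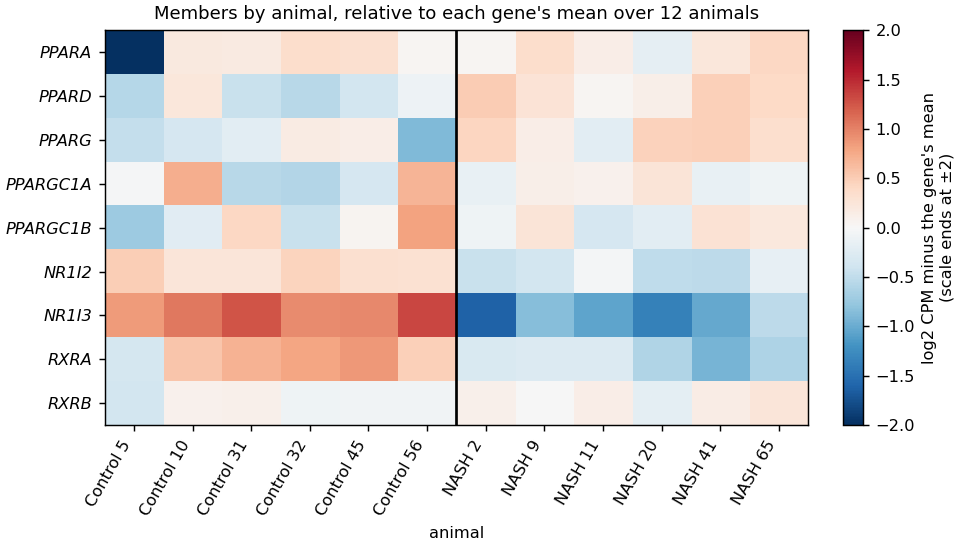
Each cell gives the log2 CPM of a member in an animal minus that gene's mean over the 12 animals, on a colour scale that ends at ±2. *NR1I3* changes colour between groups, control animal 5 stands out at *PPARA* and departs from the other controls at *RXRA*, and control animals 10 and 56 are high at *PPARGC1A*.

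Because hepatocyte markers were lower in NASH, each member was also set against them, a step added after the values had been seen. The mean log2 CPM of the 9 markers (*ALB*, *TTR*, *APOA1*, *APOB*, *SERPINA1*, *TAT*, *CYP2E1*, *ASGR1* and *FGB*) was 1.08 lower in NASH, and was subtracted from the log2 CPM of the member in the same animal. Relative to the markers, *NR1I3* was lower, by a mean difference of −1.05, and did not overlap between groups. A two-sided exact permutation test over 924 splits gave an unadjusted p = 0.00216, 9 such tests being made. This is the smallest value that 6 animals against 6 allow, and every member without overlap reaches it. *RXRA* showed a difference of 0.08 that did not pass (exact test, unadjusted p = 0.807) and whose sign rests on control animal 5, without which it was −0.11. For *PPARA* the difference without that animal was 1.01. *NR1I2* lay 0.40 above the controls with overlapping groups, *PPARGC1A* and *PPARGC1B* 1.1 and 1.12 above, and *PPARD*, *PPARG*, *PPARA* and *RXRB* 1.68, 1.61, 1.41 and 1.22 above. The reference moves every gene up by 1.08 in NASH, so that a gene with no change in CPM also comes out higher. These positive differences hold that shift together with the member's own change in CPM, and are given without their p-values. The markers moved by unequal amounts, with log2 fold changes of −2.20 for *TTR*, −1.93 for *CYP2E1* and −0.18 for *ASGR1* in edgeR's fit, so this reference is not a count of hepatocytes. The −2.11 of *NR1I3* lies within that span, so its difference depends on which markers are averaged.

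Control animal 5 stood apart in more than *PPARA*. Its *PPARA* level of 26.2 CPM, from 366 counts, was 20.6% of the mean of the other controls and lay 1.88 below the lowest of the other 11 animals on the log2 CPM scale, a gap that ranked 79 among the 11896 genes. On the deposited rlog scale it was 10.2, against 11.3 to 11.7 in the other animals. In this animal 230 genes (1.93%) lay at least 1 log2 unit below all other animals, against 9 to 53 genes (0.0757% to 0.446%) in each of the other 11. Among the 8 members other than *PPARA*, animal 5 was the lowest control for 5, where it was for 25.2% of all tested genes. These were *PPARD*, *PPARGC1B*, *NR1I3*, *RXRA* and *RXRB*, of which *RXRA* alone lay below 50% of the mean of the other controls, where 6.86% of all tested genes did. For *NR1I2* it was the highest control.

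The 17414347 counts of animal 5 exceeded the 16980274 of control animal 56, which had a *PPARA* level of 112 CPM. Its summed hepatocyte markers, 140077 CPM, were near the top of the control range. Its summed macrophage markers, 403 CPM, and endothelial markers, 589 CPM, were the lowest of the controls, as were its adipocyte (31.2 CPM) and mitosis (11.6 CPM) sums. Its cholangiocyte sum (416 CPM, of which *ANXA4* made up 266 CPM) was the highest. Of the 8 cholangiocyte markers, animal 5 was the highest control for 3 and the lowest for 1. The latter was *KRT19*, at 34.7 CPM against 46.2 to 70.5 CPM in the other controls. Of the 8 macrophage markers other than *TREM2*, which was near 0 in controls, 6 lay below 50% of the mean of the other controls. The part of these cell types in its *PPARA* level was not tested. The genes whose log2 CPM profile over the 12 animals, centred on its mean, lay nearest to that of *PPARA* were *ABHD4*, *AGPAT5* and *CSF1R*, at root mean square distances of 0.199, 0.218 and 0.22, where the *PPARA* profile itself had an SD of 0.67. Most of that spread comes from animal 5, so these are genes that were low in the same animal, and they are given as a description. *CSF1R*, one of the macrophage markers, was at 6.86 CPM in animal 5 and 24.1 to 39.4 CPM in the other controls.

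Of 34 listed targets of PPAR-alpha, 33 were in the table. Animal 5 was the lowest control for 4 of them (12.1%, against 25.2% of all tested genes) and the highest for 7 (all tested genes, 22.1%). In the other lists it was the lowest control for 10% of PXR and CAR targets, 10% of PGC-1 genes and 16.7% of coregulators. For other nuclear receptors the share was 30.4%, and for PPAR-gamma targets 37.5%. *HSD17B4*, an enzyme of peroxisomal beta-oxidation, was at 1275 CPM in animal 5, above the 1039 to 1231 CPM of the other controls. *PDK4*, a brake on glucose oxidation, was at 325 CPM, within the 219.6 to 365 CPM of the others.

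Between groups, 22 of the 33 PPAR-alpha targets were lower in NASH and 3 higher, against 26.0% and 27.9% of all tested genes. *CYP4A11* and *CYP4A22* share a row, so that 21 of 32 rows were lower. The list had a median of −0.73 on the log2 scale beside the 0.00184 of all genes. Among the lower genes, *HSD17B4* fell by 1.43 (SE 0.10, edgeR adjusted p = 2.25e-07) and the fatty acid transporter and activating enzyme *SLC27A2* by 1.35 (SE 0.13, edgeR adjusted p = 2.43e-06). *PDK4* was 1.53-fold lower (edgeR adjusted p = 0.00321), but missed the threshold with libraries scaled by size only (−0.14 on the log2 scale, edgeR adjusted p = 0.367). The 3 higher targets were *PLIN2*, which coats lipid droplets (3.59-fold, a further row of the same symbol at 7.13 CPM in NASH not passing), the acyl-CoA dehydrogenase *ACADL* (1.82-fold) and *BDH1* of ketone body metabolism (1.41-fold). Beside these targets, 8 of 9 hepatocyte markers were lower, with a median of −0.83 on the log2 scale.

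Other targets did not pass the threshold, and some varied widely between animals. *CPT1A*, the entry step of fatty acids into mitochondria, ranged from 44.3 to 240.0 CPM in controls and from 16.2 to 112 CPM in NASH (log2 difference −1.15 ± 0.58 SE, edgeR adjusted p = 0.114). *EHHADH*, chosen after its values were seen, fell into separate levels regardless of group, at 615 CPM in control 32 and 513 and 518 CPM in NASH animals 2 and 65, but at 76.4 to 119 CPM in the other 9 animals. A further row of the same symbol did not show these levels, at 41.7 ± 8.38 CPM in controls and 53.7 ± 9.83 CPM in NASH (SD, n = 6 each). *ANGPTL4*, which inhibits lipoprotein lipase, had a log2 difference of −0.60 ± 0.36 (± SE, edgeR adjusted p = 0.185).

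All 16 of the 24 listed PPAR-gamma targets that were in the table passed the threshold, 9 higher and 7 lower in NASH, against 27.9% and 26.0% of all tested genes. The list had a median of 0.98 on the log2 scale. The largest rises were those of the fatty acid carrier *FABP5* from 3.91 ± 1.05 to 123 ± 26.1 CPM, of lipoprotein lipase *LPL* from 2.58 ± 0.649 to 51.9 ± 6.64 CPM and of the cholesterol exporter *ABCA1* from 16.5 ± 2.58 to 199.9 ± 24.6 CPM (SD, n = 6 each), with log2 fold changes of 4.96, 4.33 and 3.59 (edgeR adjusted p = 1.17e-08, 6.57e-09 and 3.54e-09). *ABCA1* is also a classical target of the LXR receptors. The fatty acid carrier *FABP4* was 4-fold and the fatty acid translocase *CD36* 1.5-fold higher, both without overlap between groups. The largest falls were those of the lipid droplet protein *CIDEA* (7.70-fold), *PCK1* (7.52-fold) and *GPD1* (2.85-fold), of which *PCK1* serves gluconeogenesis and *GPD1* glycerol phosphate synthesis in hepatocytes.

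**Figure D4:**
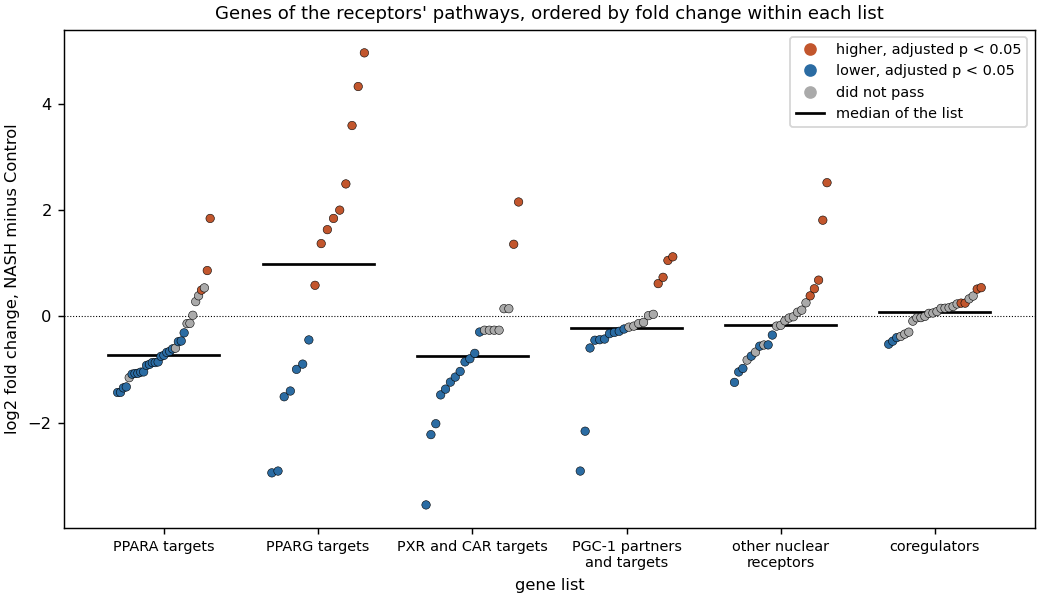
Log2 fold change between NASH and Control (vertical axis) of the genes of 6 lists, ordered within each list, with 6 animals in each group. Colours give the edgeR call at an adjusted p under 0.05 and the black line the median, which is −0.73 for PPARA targets, 0.98 for PPARG targets and −0.75 for PXR and CAR targets.

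Of the 34 listed targets of PXR and CAR, 20 were in the table on 16 count rows, since the 4 CYP3A and the 2 CYP2A symbols each share a row. Of the 20, 12 were lower in NASH and 2 higher, beside 26.0% and 27.9% of all tested genes. The list had a median of −0.75 on the log2 scale. *CYP2B6*, the classical CAR-induced cytochrome, measured 3543 to 6699 CPM in controls and 800.0 to 2033 CPM in NASH, and fell by 2.02 (SE 0.24, edgeR adjusted p = 1.5e-05). *CYP1A2* had the lowest log2 difference, −3.55 ± 0.31 (± SE, edgeR adjusted p = 1.46e-06), from 888 ± 163 to 75.8 ± 35.7 CPM (SD, n = 6 each), and is known foremost as a target of the aryl hydrocarbon receptor. The row of the organic anion transporter *SLCO1B1*, which carries 5 symbols, fell by 2.23 (edgeR adjusted p = 7.35e-07), and its further row *SLCO1B1.1* by 1.33 (edgeR adjusted p = 7.78e-07).

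*CYP3A4*, the best known PXR target, is named on 4 rows of the table, separate loci that each carry the same 5 CYP3A symbols, so that no row can be assigned to 1 of these human genes. The first of them, which entered the counts of the list, measured 1558 ± 126 CPM in controls and 1301 ± 229 CPM in NASH (SD, n = 6 each) and missed the threshold (log2 difference −0.26 ± 0.12, edgeR adjusted p = 0.0768), but passed when NASH animal 11 or 41 was left out (edgeR adjusted p = 0.0442 and 0.0440). The other 3 rows were lower in NASH, at log2 differences of −2.78, −2.06 and −1.45 (edgeR adjusted p = 5.05e-07, 1.67e-06 and 0.00127). The CYP3A rows *CYP3A4.1*, *CYP3A4.2* and *CYP3A4.3* held 3322 ± 596, 2743 ± 587 and 245.0 ± 52.1 CPM in controls and 484 ± 142, 658 ± 156 and 89.8 ± 51.5 CPM in NASH (SD, n = 6 each).

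The 2 higher genes were efflux pumps. *ABCC3* rose from 18.8 ± 5.12 to 83.8 ± 9.38 CPM (SD, n = 6 each), by 2.15 on the log2 scale (edgeR adjusted p = 5.77e-07). The *ABCB1* row in the list lay at 1.37 ± 1.1 and 3.57 ± 0.961 CPM (SD, n = 6 each, log2 difference 1.36, edgeR adjusted p = 0.0115), and a further row of that symbol, *ABCB1.1*, at 53.7 ± 13.0 and 210.3 ± 59.7 CPM (log2 difference 1.97, edgeR adjusted p = 5.82e-06).

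**Figure D5:**
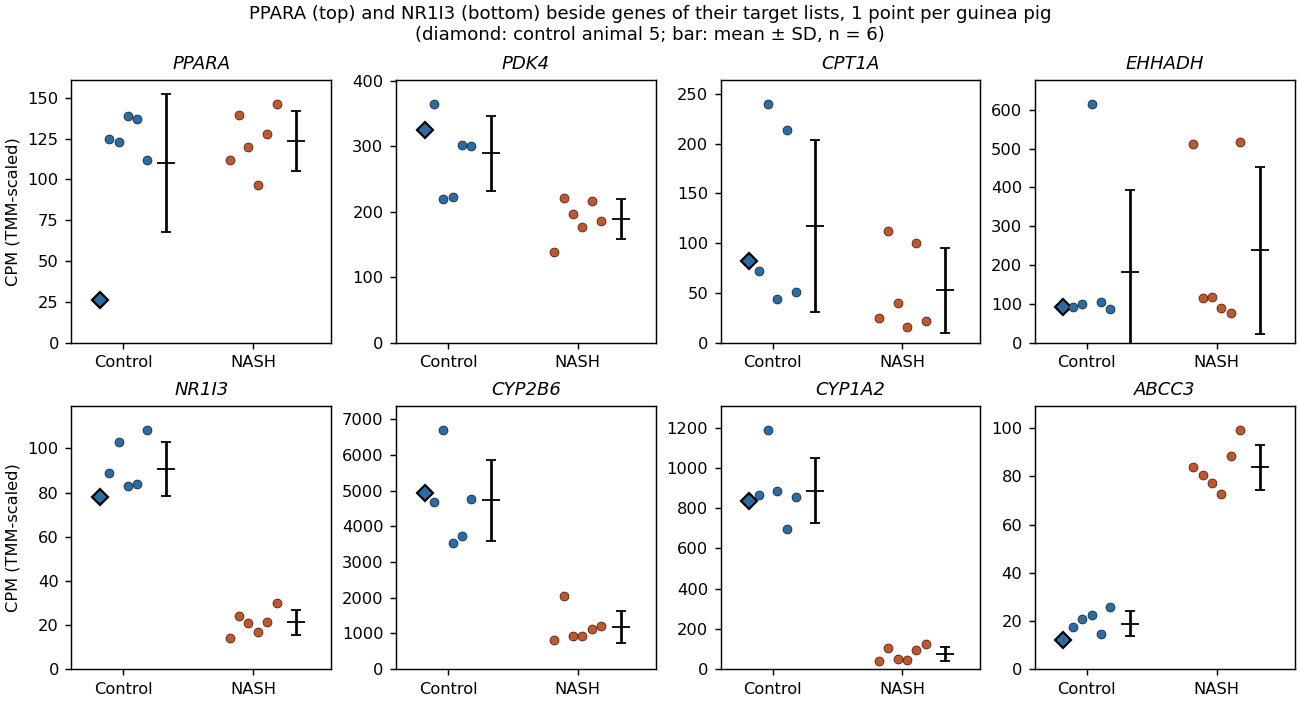
TMM-scaled CPM (vertical axes, starting at 0) of *PPARA* and *NR1I3* beside genes of their target lists, by animal, with the mean and SD of 6 animals and control animal 5 as a diamond. Animal 5 is low for *PPARA* and lies within the other controls for *PDK4* and *CPT1A*, *EHHADH* is high in 3 animals across both groups (its SD bar in controls is cut at 0), and *CYP2B6* and *CYP1A2* are lower and *ABCC3* higher in NASH without overlap.

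Of 26 listed partners and targets of PGC-1, 20 were in the table, 10 lower and 4 higher (all tested genes, 26.0% and 27.9%). The list had a median of −0.22 on the log2 scale. Gluconeogenic genes were lowest, *PCK1* falling by 2.91 (SE 0.33, edgeR adjusted p = 1.39e-05) and *G6PC* by 2.16 (SE 0.15, edgeR adjusted p = 2.55e-07). *ESRRA*, the receptor with which PGC-1 drives mitochondrial genes, was 1.34-fold lower (edgeR adjusted p = 0.0107), and the respiratory chain subunit *COX5B* 1.51-fold lower (edgeR adjusted p = 7.03e-05), a call lost with libraries scaled by size only (−0.12 on the log2 scale, edgeR adjusted p = 0.233). *TFAM*, which maintains mitochondrial DNA, was 1.18-fold lower (edgeR adjusted p = 0.0348), a direction that turned when libraries were scaled by size only, as did that of *ESRRA*, and a call that was lost without any 1 of control animals 5 and 45 and NASH animals 2, 9, 41 and 65 (adjusted p from 0.0537 to 0.0756 from edgeR). It was also lost with upper-quartile factors and with either filter on all count rows (edgeR adjusted p from 0.0899 to 0.194). The mitochondrial enzymes *SOD2*, *GPD2* and *IDH3A* were 2.18-fold, 2.08-fold and 1.67-fold higher.

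Among 29 other nuclear receptors, many of which also pair with RXR, 23 were in the table, 5 higher (21.7%) and 7 lower (30.4%), near the 27.9% and 26.0% of all tested genes. The list had a median of −0.17 on the log2 scale. The oxysterol receptor LXR-alpha (*NR1H3*), an RXR partner, fell by 1.24 (SE 0.12, edgeR adjusted p = 3.94e-06), whereas the bile acid receptor FXR (*NR1H4*), another RXR partner, was 1.43-fold higher (edgeR adjusted p = 0.014) and its target *NR0B2* 1.48-fold lower (edgeR adjusted p = 0.0124). With libraries scaled by size only *NR0B2* was at −0.09 and missed the threshold (edgeR adjusted p = 0.639). *NR2F6* was 1.97-fold lower. The immediate-early receptors *NR4A3* and *NR4A1* had the highest log2 fold changes, 2.52 and 1.81 (edgeR adjusted p = 0.00199 and 0.00177), *NR4A3* at 0.250 ± 0.231 CPM in controls and 1.45 ± 0.646 CPM in NASH (SD, n = 6 each). The estrogen receptor *ESR1* was 1.6-fold higher (edgeR adjusted p = 0.0188). The vitamin D receptor *VDR* passed narrowly (log2 fold change −0.54, edgeR adjusted p = 0.048) and not when any 1 of 10 of the 12 animals was left out, nor with upper-quartile factors, scaling by library size only or either filter on all count rows (edgeR adjusted p from 0.0673 to 0.800), and the thyroid hormone receptor *THRB* did not pass (−0.67, edgeR adjusted p = 0.0540) but did without any 1 of 4 animals (edgeR adjusted p from 0.0130 to 0.0442) and with DESeq2 (adjusted p = 0.0273).

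Coregulators had the narrowest range of log2 fold changes of the 6 lists. Of 29 listed, 24 were in the table, 4 higher (16.7%) and 3 lower (12.5%, where all tested genes had 27.9% and 26.0%), and the range ran from −0.52 to 0.54. *DNAJC7*, a cochaperone that holds CAR in the cytosol, and *PTGES3*, the HSP90 cochaperone p23, were 1.44-fold and 1.32-fold lower (edgeR adjusted p = 0.000152 and 0.000253). *NCOA2*, a coactivator of many receptors, was 1.38-fold lower (edgeR adjusted p = 0.000105). Scaled by library size only, *NCOA2* and *PTGES3* turned direction and *DNAJC7* missed the threshold. The arginine methyltransferase *PRMT1* and the row of the chromatin remodeller *SMARCA4*, which carries 2 symbols, were 1.45-fold and 1.43-fold higher (edgeR adjusted p = 4.34e-05 and 0.000173), and *SMARCD1* and *LPIN1* were both 1.19-fold higher (edgeR adjusted p = 0.00999 and 0.0278), *LPIN1* missing the threshold without any 1 of 7 of the animals. The corepressor *NRIP1* had a log2 fold change of −0.09 (edgeR adjusted p = 0.493).

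The profiles nearest to the other receptors were sought in the same way as for *PPARA*. For *NR1I3* they were the complement gene *C8B*, the glucose-sensing factor *MLXIPL* and *CA8*, at distances of 0.189, 0.198 and 0.204 where the *NR1I3* profile had an SD of 1.15, and each of these genes had a log2 fold change between −2.0 and −1.95. *CDC42EP4*, *IQGAP2* and *TM2D3* lay nearest to *NR1I2*, at distances of 0.0809, 0.0995 and 0.1 where its SD was 0.385. Their log2 fold changes lay between −0.63 and −0.61. Most of the spread of *NR1I3* and *NR1I2* lies between the groups, so their nearest genes are genes with a like fold change, given as a description. For the thinly counted *PPARG* the nearest profiles were *GTPBP3*, *TOR1A* and *GALNS*, at 0.159, 0.172 and 0.177 where its SD was 0.421.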

How the data were processed

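RNA of 12 guinea pig livers was sequenced as stranded single-read mRNA libraries. The authors deposited unnormalised read counts for 39061 loci made, per the labels and the methods of the study, with Trimmomatic 0.38.0, HISAT2 2.1.0 on the Cav.Por.3.0 genome without multimapped reads and StringTie 1.3.6, and log2 values from the rlog transformation of DESeq2 for 11896 human orthologue symbols with at least 200 counts. Since the count table holds no symbols, the rlog transformation was repeated with DESeq2 1.42.0 until the count row behind every symbol was found (largest difference 8e-07). The 11896 symbols came from 11031 rows, and 1515 symbols (12.7%) shared a row. Counts were tested in R 4.3.3 with edgeR 4.0.16 (TMM, the whole table's total as library size, robust glmQLFit and glmQLFTest, Benjamini-Hochberg over all symbols, threshold 0.05), the SE being the absolute log2 fold change over the square root of F. Log2 CPM used a prior count of 2. The study's own program, DESeq2, limma 3.58.1 and other scalings, filters and thresholds served as alternatives, and each animal was left out in turn. On simulated data with 200 of 11031 genes changed 4-fold, edgeR called 97.5% of the changed genes. Unchanged genes made up 3.47% of its calls there, and row matching was right for 100% of 1500 symbols. In the real data 53.9% of tested genes were called, and recovery with so large a share changed was not tested.

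Members and gene lists were chosen with earlier results of these data known. Named genes are all members, the 3 highest and 3 lowest genes past the threshold of each list, a few well-known genes and the 3 nearest profiles of *PPARA*, *PPARG*, *NR1I2* and *NR1I3*. Listed genes that are not rows of the table (such as *HNF4A*, *NCOR1* and *UGT1A1*) were not analysed here. Per-gene levels are not compared between genes, because no lengths were used. Intervals cover the spread between animals, and no batch is named in the labels. Plots used matplotlib 3.10.9 under Python 3.11.15. No member has a further row, but 4 genes named by the rule and *EHHADH* do (a symbol repeated with a suffix), and lists count the first row of each symbol. The further rows, *EHHADH* and the macrophage sum without *GPNMB* were added after their values were seen. Some genes that the rule names are not reported here.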

Additional observations from a re-analysis of the deposited data

Results flagged for a closer look

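Samples far from the rest of their group of 6 were sought for the members and the named genes with Dixon's criterion (gap to the nearest animal over the range, at its 95% critical value), in 116 groups, of which chance alone flags about 1 in 20. It picked out 9 groups. *PPARA* of control animal 5, at 26.2 CPM with the next control at 112 CPM, was the only member among them, and since the choice of genes already pointed to this value, its flag is no independent evidence.

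In NASH animal 9, *NR4A1* stood at 18.9 CPM (next 6.19), *NR4A3* at 2.72 CPM (next 1.54) and *CYP2B6* at 2033 CPM (next 1211). In NASH animal 20, *PTGES3* stood at 251 CPM (next 231). Among controls, *ACADL* was highest in animal 10 at 11.3 CPM (next 6.13), *NR2F6* and *DNAJC7* in animal 31 at 19.3 and 121 CPM (next 14.2 and 105), and *TFAM* in animal 5 at 48.8 CPM (next 38.9).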

How the results depend on the processing

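*NR1I3*, *NR1I2*, *RXRA* and *PPARD* kept their direction and their call in every fit with 1 animal left out, and so did *NR1I3* and *RXRA* under every other scaling, filter, tool and threshold listed with the methods. The members higher in NASH numbered 1 to 2 with 1 animal left out, since *PPARG* was lost without any 1 of 6 animals, and 3 members were lower each time. At a threshold of 0.01 the count of higher members was 1. Tested against a log2 fold change of 0.5 it was 0, with *PPARD* at an adjusted p of 0.349, *PPARG* at 0.635 and *NR1I2* at 0.0565 by edgeR. In all, 102 of the members' values with 1 animal left out kept their call and 6 lost it, and under the other settings 85 kept it, 4 lost it and 1 gained it.

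Scaling by library size only moved the median of all genes to 0.48, with 7603 genes higher and 911 lower. *NR1I2* then stood at −0.20 (edgeR adjusted p = 0.0452), *RXRA* at −0.56, *NR1I3* at −1.65, *PPARD* at 1.06 and *PPARG* at 0.99, each still past the threshold, and *PPARA*, *PPARGC1A* and *PPARGC1B* at 0.62, 0.41 and 0.43, not past it. The lists then counted 8 higher and 13 lower PPAR-alpha targets, 11 higher and 2 lower PGC-1 genes, 10 higher and 3 lower other receptors, and 18 higher and 0 lower coregulators. *NCOA2* (0.00662), *PTGES3* (0.0775), *TFAM* (0.24), *ESRRA* (0.045) and *NRIP1* (0.38) turned positive on the log2 scale there, the shift of the median being larger than each of these values. *TFAM* and *NRIP1* passed the threshold there as higher (edgeR adjusted p = 0.0172 and 0.00732), whereas *NCOA2*, *PTGES3* and *ESRRA* did not pass. Against 0.5, there were 1 higher and 14 lower PPAR-alpha targets, 1 higher PXR and CAR target, 2 lower PGC-1 genes, 2 higher and 3 lower other receptors, and 0 coregulators either way. At 0.01, there were 1 higher PXR and CAR target and 3 higher and 4 lower other receptors. Fewer calls follow from the stricter criterion itself. Relative to the hepatocyte markers, an alternative chosen after seeing the data, *NR1I2* (0.40), *RXRA* (0.0798), *PPARGC1A* (1.1) and *PPARGC1B* (1.12) turned positive, *RXRA* only with control animal 5 (−0.11 without it), under a reference that moves every gene up by 1.08.

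No paired analysis was possible because the groups share no animal numbers. Depth limits *PPARG* and *PPARGC1B* most, with 36 to 244 and 29 to 164 counts.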
